A study of Mus musculus with 17 samples.

Results

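The nuclei described here were the Rorb nuclei of the mouse neocortex, the candidates for excitatory neurons of layer 4, in a study of chronic unpredictable stress (CUS). They were selected on measured values. A barcode with 600 to 5000 detected genes and under 5% of its UMIs (unique molecular identifiers, each standing for 1 captured transcript) on mitochondrial genes was a member if it held 2 or more UMIs of Rorb and at least 1 UMI of Pamr1, Kcnh5, Cpne9, Rspo1, Whrn or Prr16. It also had to hold no UMI of Gad1, Gad2, Foxp2, Fezf2 or Slc1a3 and fewer than 3 of the 8 layer 2/3 genes Rasgrf2, Enpp2, Calb1, Otof, Lamp5, Nectin3, Trpc6 and Pparg. This rule found 1597 members among 31486 passing barcodes, out of 40000 deposited.

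The nuclei came from 8 male C57BL/6 mice at postnatal day 80, of which 4 were controls and 4 had been exposed to CUS, a schedule of changing stressors several times a day over consecutive days that ended the day before the tissue was taken. Control mice lived in a separate room and were handled daily, so room and stress cannot be told apart. Single nuclei of the cortex were profiled by sNucDrop-seq, which captures nuclear RNA, introns included, in droplets. Another 9 male mice of the same strain at postnatal day 90, 4 controls and 5 exposed to CUS, had given bulk nuclear RNA. It came from the medial prefrontal cortex (mPFC) and served only to set values side by side. Per the study's methods, the bulk mice were taken the day after their last behavioral test. Bulk and single nuclei therefore also differ in the time of sampling and in that testing.

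Layer 4 is the main entry of sensory signals from the thalamus into the neocortex, and its excitatory neurons pass them on to layer 2/3. Rorb encodes an orphan nuclear receptor that marks these neurons in sensory areas and takes part in arranging them into barrels, and it is also made by some neurons of layer 5. Areas of the neocortex differ in how thick layer 4 is, and frontal areas of the mouse have little or none of it.

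Each mouse gave 134 to 268 members. A member held a median of 2388 UMIs and 1431 genes, against 2073 UMIs in the other 29889 passing barcodes. A doublet score above 0.2 was found in 9.71% of members and 15.2% of passing barcodes, and members above it were kept unless stated. No member barcode occurred among the members of another library, and 27 passing barcodes occurred in more than 1 library. Member UMIs per mouse totalled 364600 to 855827, and a pair of mice within a group differed by a chi-square of 1.41 to 3.27 per degree of freedom over 12 pairs, which is more than counting error gives. The mouse's batch was not among the labels, and no value within batches can be given.

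Rorb was detected in 7074 passing barcodes and held 2 or more UMIs in 3990, of which 3076 also held a secondary marker. Leaving out barcodes with Gad1 or Gad2 left 2576, leaving out Slc1a3, Foxp2 and Fezf2 as well left 2066, and 469 of those held 3 or more layer 2/3 genes. Prr16 was the secondary marker met most often, in 66.6% of members, followed by Kcnh5 in 54.6%, Pamr1 in 42.1% and Cpne9 in 39.7%. Whrn and Rspo1 were found in 10.5% and 8.77%. In 181 members, or 11.3%, Prr16 was the only secondary marker.

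At the edges of the rule, members resembled the nuclei just outside it. The 526 members with just 2 Rorb UMIs had Unc5d in 63.9% and Cux2 in 15.6%, and the 950 nuclei with 1 Rorb UMI that met every other condition had them in 54.7% and 13.9%. Il1rapl2 was detected in 27.4% on either side of that edge. The 472 members with 2 layer 2/3 genes had Cux2 in 22.2%, and the 252 nuclei left out with 3 of them had it in 30.6%. These are descriptions of the threshold and carry no test.

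Rorb lies on the reverse strand of chromosome 19, at chr19:18930605-19111196 of mm10. RefSeq gives the gene 2 windows around start sites, of which the second, at chr19:19001068-19001367, held no GC box. The first 300-base window from RefSeq (GRCm38.p6, the assembly behind mm10), 250 bases before and 50 after the start at base 19111196, is given here because the gene chose the nuclei. The capitals mark the GC box (GGGCGG, searched on both strands), which was found on the opposite strand at -156 to -151 and at -40 to -35 from the start. 35.7% of the 32851 such windows in the table hold this motif, so the match describes the letters and says nothing of what binds there.
Rorb, chr19:19111147-19111446 (-): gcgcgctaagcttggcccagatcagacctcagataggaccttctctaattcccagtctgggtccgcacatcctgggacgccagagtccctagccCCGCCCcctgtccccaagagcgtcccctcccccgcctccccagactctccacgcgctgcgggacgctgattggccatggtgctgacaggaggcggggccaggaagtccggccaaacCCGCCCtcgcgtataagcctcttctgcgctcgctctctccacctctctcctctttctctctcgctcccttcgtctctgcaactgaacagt

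The label was checked against genes that the rule did not use, with the members set beside nuclei of layer 2/3 (1110 nuclei with Cux2 and 3 or more of the 8 layer 2/3 genes, without Gad1, Gad2, Foxp2, Fezf2 or Slc1a3), nuclei of layer 6 (1012 nuclei with 2 or more UMIs of Foxp2 and a second layer 6 gene, without Gad1, Gad2 or Slc1a3 and with fewer than 2 UMIs of Rorb) and all other passing barcodes. Because the rule picked these cells, the levels that follow are a description without a test, in UMI CPM, the UMIs of a gene for every 1000000 UMIs of the same nuclei. Rora, a nuclear receptor related to Rorb that thalamus-recipient neurons make, stood at 943 in the members, against 341 in layer 2/3, 232 in layer 6 and 411 elsewhere. Its level in the 8 mice ran from 815 to 1080.3, and it exceeded each of the other sets in 8 of 8 mice. Zmat4, a zinc finger gene, was detected in 55.6% of members, 19.8% of layer 2/3 and 27.0% of layer 6 nuclei. Unc5d, a netrin receptor of upper-layer neurons, was found in 71.7% of members and in 74.9% of layer 2/3 nuclei, whose median depth was 3672 UMIs, but in 12.7% of layer 6 nuclei.

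The other genes of the list of 13 layer 4 genes stood less far above all other barcodes or, as Scnn1a, were rare, and some genes of deeper layers were present. Adcy1, an adenylyl cyclase of thalamocortical synapses, stood at 0.857-fold of all other barcodes and above them in 1 of 8 mice. Btbd3, Lhx2 and Bhlhe22 stood at 1.11-fold, 1.05-fold and 1.11-fold. Cux1, Nr2f1 and Pcdh20 stood at 1.83-fold, 1.39-fold and 1.71-fold. Scnn1a, a sodium channel subunit used to mark layer 4 of sensory cortex, was detected in 1.44% of members, against 0.340% of the 4711 nuclei with 2 or more UMIs of Gad1 and Gad2 (median depth 2417 UMIs), which should lack it. Cux2, which marks layers 2 to 4, was present in 19.2% of members and in 12.8% of the Gad nuclei. Rora stood at 428 UMI CPM in the Gad nuclei, and Zmat4 was found in 30.5% and Unc5d in 39.0% of them. Slc17a7, the vesicular glutamate transporter of cortical excitatory neurons, was found in 40.8% of members, 53.5% of layer 2/3, 47.2% of layer 6 and 11.7% of Gad nuclei. Hs3st4, a layer 6 gene that helped choose the layer 6 nuclei, was detected in 29.6% of members and 72.6% of layer 6 nuclei, and Il1rapl2, an interleukin-1 receptor relative, in 28.4% of members against 10.2% and 10.5% of layers 2/3 and 6, but also in 20.8% of Gad nuclei and 19.4% of all other barcodes. In UMI CPM, Il1rapl2 stood at 483 in members and 299 in Gad nuclei. The nuclei are therefore called Rorb nuclei, after the gene that chose them.

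**Figure D1:**
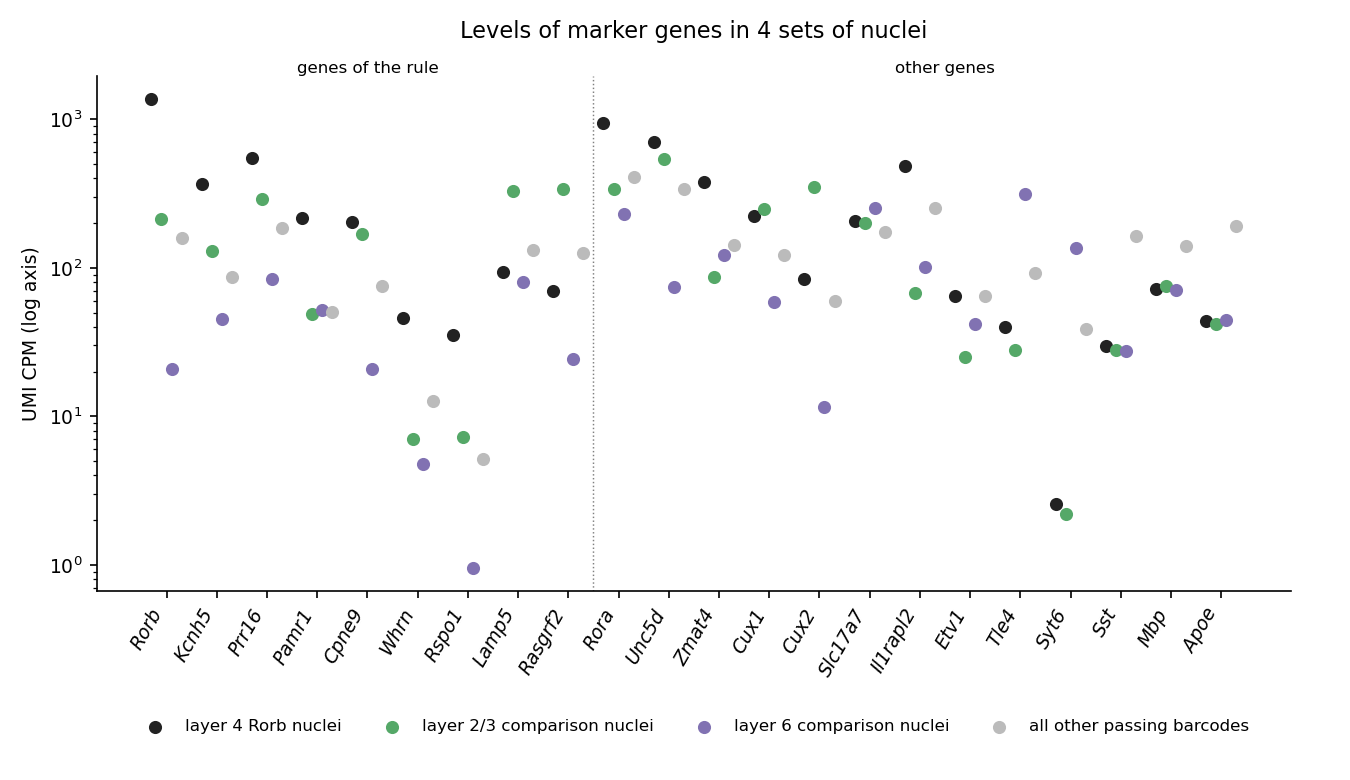
Levels of 22 marker genes in UMI CPM (log axis), summed over the 8 mice, in the Rorb nuclei, the layer 2/3 and layer 6 comparison nuclei and all other passing barcodes, one point per set. Genes left of the dotted line belong to the rule of the Rorb nuclei. Cux2 also chose the layer 2/3 nuclei, and Tle4 and Syt6 helped choose the layer 6 nuclei. Rora and Zmat4, right of the line, are highest in the Rorb nuclei, at 943 and 378 UMI CPM.

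Among 2860 genes with UMIs enough to compare (at least 20% as many UMIs as members), 42 outside the rule stood 2-fold or more above all other barcodes. The noncoding RNA Gm20752 led, at 102 UMI CPM in the members and 15.3 in the rest. Adam33, a membrane-bound metalloprotease, stood at 69.6 against 17.8, and Lama4, which encodes the laminin alpha-4 chain of basement membranes, at 85.7 against 27.7. Scube1, a secreted or surface-bound glycoprotein, stood at 139 against 45.4, Kcnab3, an auxiliary subunit of voltage-gated potassium channels, at 78.4 against 27.7, and Crhr1, the receptor of corticotropin-releasing hormone, at 69.6 against 25.2. Each of these was above the rest, layer 2/3 and layer 6 in 8 of 8 mice. At the other end, 16 genes stood at 0.5-fold or less of the rest. Among them were Erbb4, a neuregulin receptor of interneurons, at 77.5 against 624, and the neurotrophin receptor gene Ntrk3, at 153 against 343.

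The members were not uniform. Cux2 without Il1rapl2 was detected in 269, Il1rapl2 without Cux2 in 417, both in 37 and neither in 874. Il1rapl2 was detected in 12.1% of members with Cux2 and in 32.3% of those without, and the share was lower with Cux2 in 8 of 8 mice. The nuclei with Il1rapl2 alone were deeper (median 3387 against 2398 UMIs), which shares of nuclei follow, so genes are compared here as UMI CPM.

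Of 6605 genes with 60 or more UMIs over both sets, 136 were higher with Cux2 in 8 of 8 mice and 183 were higher with Il1rapl2. On the Cux2 side stood Cux1, a relative of Cux2 that shapes the dendrites of upper-layer neurons, at 335 against 76.6 UMI CPM. Astn2, an astrotactin of neuronal migration, followed at 891 against 296, Sema3a, a secreted guidance cue, at 123 against 45.0, and Btbd3, which directs dendrites toward active inputs in layer 4, at 114 against 47.4. The secondary markers Prr16 and Cpne9 lay on this side too, at 687 against 379.7 and 271 against 134.

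The Il1rapl2 side held genes known from layer 5. Etv1, a transcription factor of layer 5 neurons, stood at 119 UMI CPM there and at 8.08 with Cux2, and Deptor, an mTOR inhibitor that marks layer 5, at 88.1 against 20.2. The receptors Grm8 and Gabrg3 reached 337 and 366 against 82.1 and 106. Robo1, a receptor of Slit proteins, stood at 528 against 164, and Ntng1, a netrin-like adhesion gene, at 726 against 209. These counts of genes describe a split made on 2 genes of the same nuclei and carry no test.

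**Figure D2:**
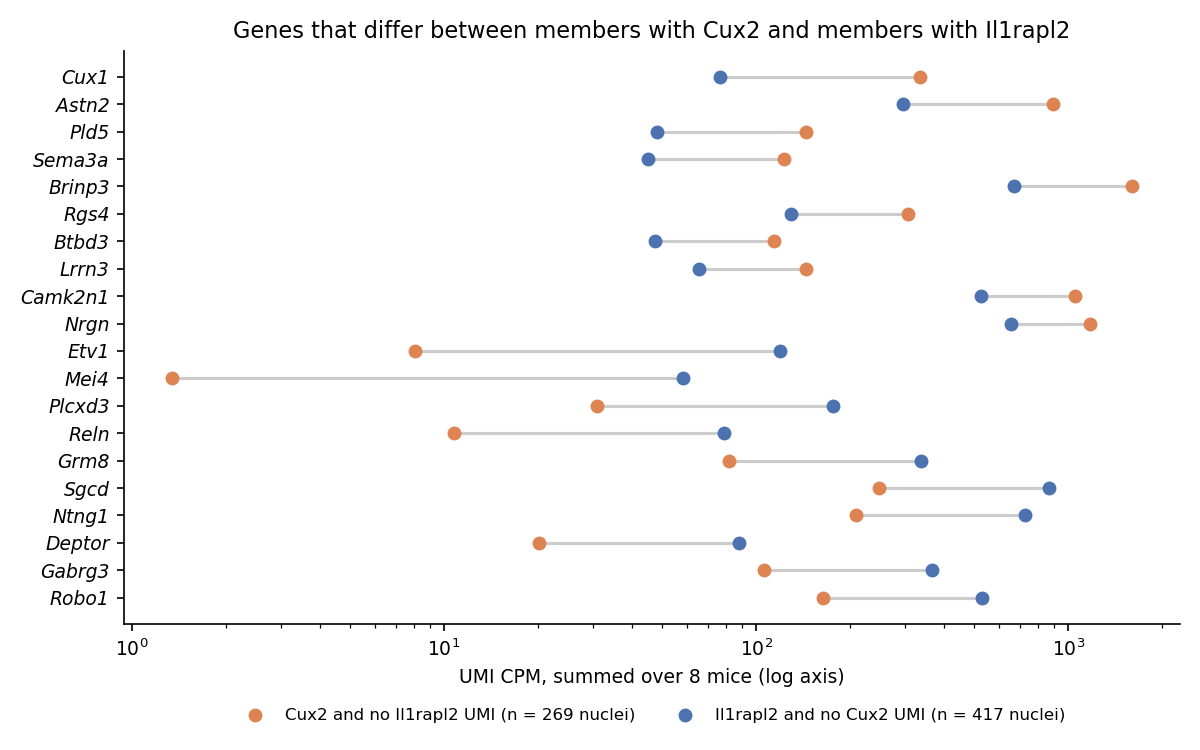
Levels of 20 genes in UMI CPM (log axis), summed over 8 mice, in the 269 Rorb nuclei with Cux2 and no Il1rapl2 UMI (orange) and the 417 with Il1rapl2 and no Cux2 UMI (blue), with a grey line joining the values of a gene. The upper 10 genes are higher with Cux2 and the lower 10 with Il1rapl2. Etv1 spans 8.08 to 119 UMI CPM, and Mei4 rests on a single UMI on the Cux2 side.

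Whether stress changed how many Rorb nuclei were recovered was asked of the share of members among passing barcodes. The shares were 5.77, 4.23, 5.40 and 5.91% in control mice and 3.58, 5.62, 5.38 and 5.31% in CUS mice. CUS mouse 1 lay below every other mouse, and the groups overlapped. The means were 5.33% ± 0.766 (SD, n = 4) and 4.97% ± 0.941 (SD, n = 4), a difference of -0.355 percentage points with p = 0.486 by a two-sided exact permutation test, which can give no p below 0.0286. The direction turned without CUS mouse 1, to 0.111 points. With every barcode thinned to 1000 UMIs the rule kept 829 members of 28791, with mean shares of 3.28% and 2.61%.

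The makeup of the members was close in both groups for the genes that split them. Cux2 was detected in 19.9% ± 2.17 (SD, n = 4) of members in control mice and 18.3% ± 3.44 (SD, n = 4) in CUS mice, and Il1rapl2 in 27.9% ± 4.05 (SD, n = 4) of members in control mice and 28.9% ± 1.40 (SD, n = 4) in CUS mice. Prr16, the secondary marker that brought in most members, was detected in 73.5% ± 5.40 (SD, n = 4) of members in control mice and 58.9% ± 11.4 (SD, n = 4) in CUS mice. In CUS mice Prr16 was found in 44.1, 66.0, 69.6 and 56.0% of members, so that CUS mice 1, 2 and 4 lay below every control mouse.

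Prr16, whose product promotes protein synthesis, is a gene of the rule and was singled out after its values were seen. It was read in an alternative fit with Prr16 taken out of the rule. This left 1416 members, still chosen by the other genes of the rule. There it fell in CUS mice at an adjusted p under 0.2, the threshold used for nuclei. Its levels were 659.6, 723, 548 and 699 UMI CPM in control and 264, 481, 490.1 and 378 in CUS mice, with no overlap. The difference was -0.71 on the log2 scale (SE 0.166), with adjusted p = 0.168 (edgeR's quasi-likelihood test, p-values adjusted by Benjamini and Hochberg's method).

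The main comparison asked which genes differed between CUS and control mice in the Rorb nuclei, on UMIs summed per mouse. Genes of the rule entered the fit and the adjustment of p-values but are left out of the genes counted here. CPM in these tests are scaled to the UMIs of the genes tested, with TMM factors (edgeR's correction for library composition), while UMI CPM are scaled to all UMIs. Of 5331 genes tested, Mical2 rose and Lama4 fell at an adjusted p under 0.2, the threshold that the study's methods use. Each direction thus held 0.0188% of the genes tested. At an unadjusted p under 0.05, 161 genes (3.02%) were higher and 143 (2.68%) lower, and 83 genes (1.56%) had all 4 CUS mice above all 4 control mice, with 95 (1.78%) the other way round. Without CUS mouse 2 the calls numbered 38, with 25 higher and 13 lower, and without CUS mouse 1, 3 or 4 they numbered 4 each. Without TMM factors there were 2 genes higher and 1 lower.

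Mical2, at chr7:112225856-112355194 of mm10, encodes an oxidase that takes actin filaments apart and drives nuclear actin loss, which frees the cofactors of serum response factor. Its levels were 201, 162, 195 and 252 CPM in control mice and 438, 331, 322 and 389.7 CPM in CUS mice. No CUS mouse was as low as a control mouse. The difference was 0.89 on the log2 scale (SE 0.155, adjusted p = 0.0114, edgeR's quasi-likelihood test), and it kept this call in each of the 18 alternative settings, at 0.80 to 1.00. Mical2 UMIs were found in 35.9% of members of control mice and 53.5% of members of CUS mice, against 22.5% of all Gad nuclei.

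The higher Mical2 was shared inside the Rorb nuclei and beyond them. Members with Cux2 and no Il1rapl2 stood at 171 ± 50.1 UMI CPM (SD, n = 4 mice) in control and 354 ± 86.4 in CUS mice. Members with Il1rapl2 and no Cux2 stood at 165 ± 24.6 and 315 ± 71.1, and neither set overlapped between groups. All other barcodes stood at 139 ± 10.4 and 225 ± 30.9, again without overlap. The groups did not overlap either in nuclei with oligodendrocyte markers, at 68.0, 90.4, 104 and 85.7 UMI CPM in control and 213, 107, 129 and 130.4 in CUS mice. They overlapped in layer 6, at 143 ± 23.4 and 203 ± 62.5, and in Gad nuclei, at 93.7 ± 12.4 and 136 ± 26.7. In layer 2/3 the log2 difference was 0.86 (SE 0.162), and the difference between the effects in Rorb and layer 2/3 nuclei was 0.07 (SE 0.149, adjusted p = 0.979, edgeR's quasi-likelihood test).

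In the bulk mPFC nuclei of other mice, 214 genes (1.16%) rose and 392 (2.13%) fell among 18394 tested at an adjusted p under 0.05. In CPM of reads, Mical2 stood there at 369.7, 439.7, 607 and 411 CPM in control and 776, 543, 669.6, 667 and 644 CPM in CUS mice, overlapping at control mouse 3 and CUS mouse 2. Its log2 difference was 0.53 (SE 0.132, adjusted p = 0.0476, edgeR's quasi-likelihood test). The count of bulk calls ran from 132 without control mouse 2 to 1500 without control mouse 3, and lay between 142 and 353 without CUS mouse 1, 3, 4 or 5. Without TMM factors, 203 genes rose and 619 fell. Fewer cells of a type and less RNA per cell cannot be told apart in bulk nuclei.

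The promoter window of Mical2 from RefSeq, cut as for Rorb, is shown because Mical2 is the gene that rose in the main comparison. It holds none of the motifs searched on both strands, namely the cyclic AMP response element TGACGTCA, its core TGACG, the ROR half-site AGGTCA, the GC box GGGCGG and the CArG box of serum response factor. These are found in 1.79%, 20.8%, 16.3%, 35.7% and 1.63% of the 32851 windows, so most windows lack most of them. TGACG is part of TGACGTCA, and every match of the longer motif counts for both.
Mical2, chr7:112225586-112225885 (+): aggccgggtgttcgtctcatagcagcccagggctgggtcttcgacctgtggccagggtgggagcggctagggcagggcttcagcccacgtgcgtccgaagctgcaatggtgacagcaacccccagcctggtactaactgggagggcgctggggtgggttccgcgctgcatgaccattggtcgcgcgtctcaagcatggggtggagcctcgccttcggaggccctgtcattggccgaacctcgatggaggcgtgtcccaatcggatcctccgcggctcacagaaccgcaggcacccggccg

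Lama4, at chr10:38965515-39110188 of mm10, was the gene that fell in the main comparison. Its levels were 159, 127, 114 and 150.1 CPM in control mice and 26.9, 67.6, 77.7 and 66.5 CPM in CUS mice. The groups did not overlap, and CUS mouse 1, the mouse with the smallest share of members, was the lowest. The difference was -1.15 on the log2 scale (SE 0.214, adjusted p = 0.0204, edgeR's quasi-likelihood test), and -1.28 to -0.93 over the 18 alternative settings, each of which called it. These levels rest on 47 to 88 UMIs per control mouse and 11 to 49 per CUS mouse. Lama4 UMIs were found in 23.2% of members of control and 12.9% of members of CUS mice, against 6.71% and 5.32% of Gad nuclei.

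Within the Rorb nuclei, Lama4 was highest with Cux2, where it stood at 294, 245, 172 and 111 UMI CPM in control mice and 40.3, 57.6, 81.4 and 96.3 in CUS mice, without overlap. With Il1rapl2 and no Cux2 it stood at 63.9 UMI CPM in control and 40.5 in CUS mice on average, and the groups overlapped. The difference between these 2 effects was not tested. All other barcodes stood at 31.5 ± 4.83 (SD, n = 4 mice) and 22.6 ± 2.03 without overlap, and Gad nuclei at 27.3 ± 5.41 and 26.1 ± 5.97, where the groups overlapped. In layer 2/3 the log2 difference was -1.13 (SE 0.331, adjusted p = 0.236, edgeR's quasi-likelihood test), and in bulk it was -0.37 (SE 0.135, adjusted p = 0.140).

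**Figure D3:**
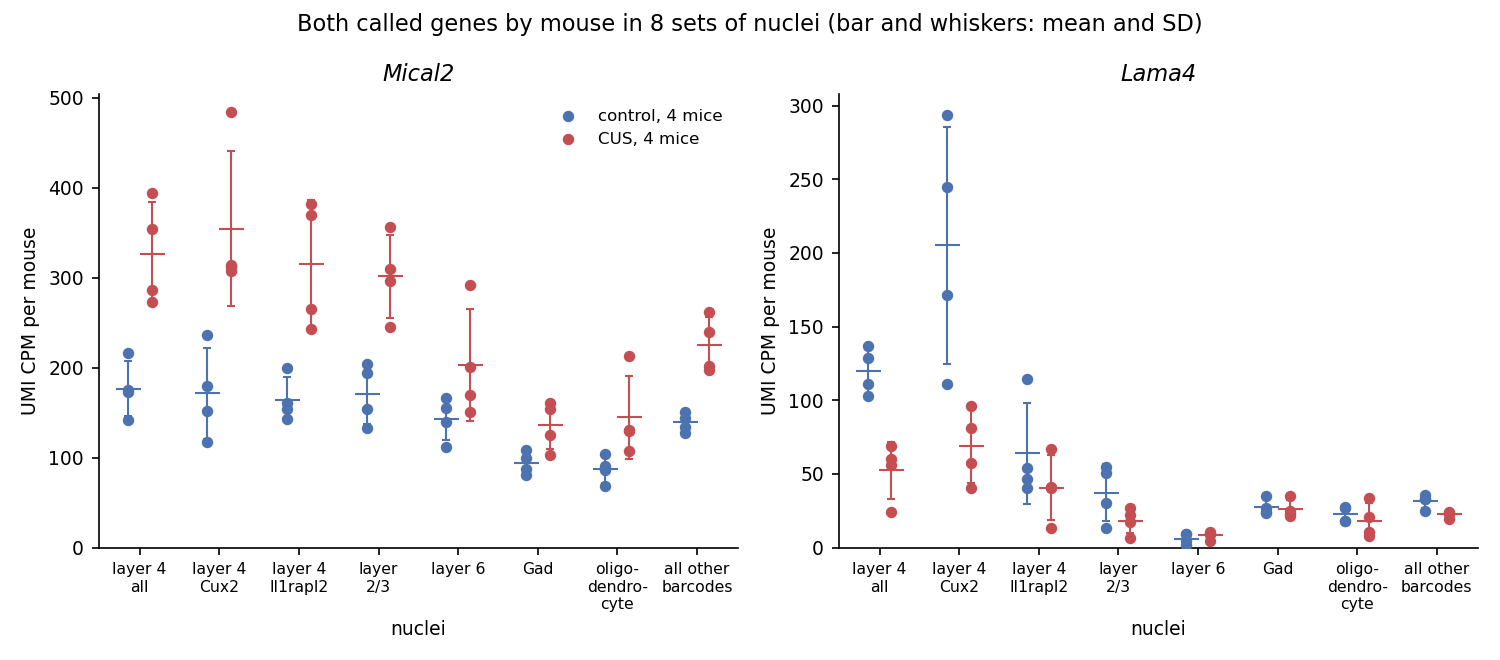
UMI CPM per mouse (points, 4 control mice in blue and 4 CUS mice in red) of Mical2 and Lama4 in 8 sets of nuclei, with the mean and SD as bar and whiskers and both axes starting at 0. The Rorb nuclei are drawn as layer 4, all together and split by Cux2 and Il1rapl2. Mical2 lies higher in every CUS mouse in the Rorb nuclei and in all other barcodes. Lama4 lies lower in every CUS mouse in the Rorb nuclei, in those with Cux2 (106 UMIs over the 8 mice) and in all other barcodes.

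The share of members with 2 or more secondary markers was 70.9% to 77.5% in control mice and 62.8% to 69.9% in CUS mice, without overlap. Since these genes are part of the rule no test is given. Prr16, the most frequent of them, was itself found in fewer members of CUS mice on average. The levels of both called genes on either side of this split are a description and add no support to the calls. Among members with 2 or more secondary markers, Mical2 stood at 179.6 ± 38.7 UMI CPM in control and 347 ± 76.5 in CUS mice (SD, n = 4 mice each), and Lama4 at 133 ± 23.6 and 59.8 ± 22.1, both without overlap. Among members with 1 secondary marker, Mical2 stood at 167 ± 6.97 and 289.7 ± 62.2, without overlap, and Lama4 at 73.1 ± 32.8 and 35.8 ± 14.8, with overlap.

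Marker sums of other layers overlapped between the groups. The excitatory neuron markers ran from 4659.7 to 4934 UMI CPM in control and 4273 to 5672 in CUS mice, the layer 5 markers from 134 to 201 UMI CPM in control and 137 to 199.8 in CUS mice, and the layer 6 markers from 239 to 368 UMI CPM in control and 244 to 319 in CUS mice. The markers of near-projecting neurons of layers 5 and 6 ran from 465 to 838 UMI CPM in control and 359 to 653 in CUS mice.

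Further genes came near the threshold without passing it in the main comparison. They were chosen after their values were seen and are given as values. Pde10a, a cyclic nucleotide phosphodiesterase, stood at 386, 411, 369.7 and 425 CPM in control and 572, 896, 520.2 and 557 CPM in CUS mice (log2 0.67, SE 0.155, adjusted p = 0.240, edgeR's quasi-likelihood test). CUS mouse 2 was far above the rest. Adcy8, a calcium-stimulated adenylyl cyclase, stood at 498, 409.6, 429 and 527 CPM against 239.7, 356, 272 and 345 CPM (log2 -0.60, SE 0.149, adjusted p = 0.318). Over the 18 alternative settings, Pde10a passed the threshold in 12 and Adcy8 in 6. The 2 genes act on the same second messenger in opposite directions, and a joint effect was not tested. Neither gene overlapped between groups. In layer 2/3 nuclei of the same mice Adcy8 passed the threshold of 0.2 (log2 -0.66, SE 0.156, adjusted p = 0.0790, same test). Pde10a stood at 0.54 there (adjusted p = 0.411). In layer 6 nuclei Adcy8 stood at -0.10 and Pde10a at 0.26. In bulk mPFC nuclei Pde10a rose (log2 0.61, SE 0.113, adjusted p = 0.0161), and Adcy8 stood at -0.29 (adjusted p = 0.238).

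Wwc1, which encodes the synaptic scaffold KIBRA, stood at a mean of 45.0 ± 4.76 CPM in control and 86.0 ± 21.7 CPM in CUS mice (SD, n = 4 each). Lypd1, a regulator of nicotinic receptors, stood at 58.2 ± 5.75 and 30.8 ± 3.06 CPM. Neither overlapped between groups, with adjusted p = 0.298 and 0.389 by edgeR's quasi-likelihood test. In layer 2/3 nuclei Wwc1 passed the threshold of 0.2 by that test (log2 0.93, SE 0.227, adjusted p = 0.105). Lypd1 did not (log2 -0.14, adjusted p = 0.868). Cux1, the gene most tied to the Cux2 side, stood at 324, 316, 269 and 259 CPM against 157, 185, 248 and 239 CPM (log2 -0.48, SE 0.156, adjusted p = 0.579), and Cux2 itself at 99.3 ± 8.55 and 91.6 ± 9.83 CPM. Kcnab3, a leading gene of the Rorb nuclei, stood at 66.9, 68.3, 70.1 and 83.0 against 117, 95.2, 108 and 109 CPM (adjusted p = 0.506).

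The Rorb nuclei's own genes were then read as groups. Of the 42 leading genes, 29 were lower and 13 higher in CUS mice, with a median log2 difference of -0.12, and Lama4 was the only call. Over all 5331 genes, 2643 were lower and the median was 0.00. Of the 10 tested layer 4 genes outside the rule, 9 were lower, with a median of -0.11, and none was called. Over all 13 genes of that list, untested ones included, the summed level was 2847 to 3366 UMI CPM in control mice and 2525 to 2841 in CUS mice. Of the 161 tested genes of the Il1rapl2 side, 104 were lower (median -0.09), and of the 129 tested genes of the Cux2 side 60 were (median 0.02). Neither list held a call. The lower levels were not particular to the Rorb nuclei. In layer 2/3 and layer 6 nuclei of the same mice, the leading genes had medians of -0.26 (40 genes) and -0.13 (24 genes). The layer 4 list had -0.14 and -0.09 there, the Il1rapl2 side -0.14 and -0.11, and the Cux2 side 0.00 and -0.00.

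Pathway lists were described in the same way, and among their members Mical2, in the list of migration and cytoskeleton genes, was the only call. The rapid activity-regulated transcription factors, which neurons switch on within minutes of firing, had 6 of 23 members tested, with 4 higher and a median of 0.34. Egr1 stood at 64.4, 157, 217 and 281 CPM in control and 272, 233, 242 and 265 CPM in CUS mice (log2 0.50, SE 0.217, adjusted p = 0.848, edgeR's quasi-likelihood test). The control mice spread widely, and control mouse 1 was the lowest. Of the activity-regulated effector genes, 4 of 10 tested were higher, with a median of -0.02, and Homer1, whose short form reshapes the postsynaptic density, stood at 276 ± 34.5 and 345 ± 57.8 CPM (SD, n = 4 each). In bulk mPFC nuclei, taken after behavioral tests, Homer1 fell, with a log2 difference of -0.35 (SE 0.0818, adjusted p = 0.0402, edgeR's quasi-likelihood test). The MAP kinase feedback genes, phosphatases and Sprouty relatives that damp that cascade, were higher in 5 of 5 tested (median 0.23), led by Dusp14 at 40.1 ± 6.26 against 57.0 ± 10.0 CPM.

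Stress hormones act on neurons through the receptors of Nr3c1 and Nr3c2. Nr3c1, the glucocorticoid receptor gene, stood at 260.1, 279.7, 266 and 230.0 CPM in control and 188, 148, 196 and 220.0 CPM in CUS mice. The groups did not overlap (log2 -0.45, SE 0.150, adjusted p = 0.597, edgeR's quasi-likelihood test). Sgk1, a kinase gene that glucocorticoids induce, stood at 54.5, 63.3, 54.5 and 60.7 against 63.6, 125, 64.8 and 91.0 CPM, with CUS mouse 2 the highest (log2 0.57, SE 0.221, adjusted p = 0.772). Of the 8 tested genes of this list, 6 were higher, with a median of 0.15.

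At synapses, 14 of 17 tested postsynaptic scaffold genes were higher, with a median of 0.15. The median of this list was 0.15 in layer 2/3 and -0.03 in layer 6 nuclei. Dlg4, which encodes the scaffold PSD-95, stood at 55.5 ± 12.9 and 84.7 ± 13.4 CPM (SD, n = 4 each; adjusted p = 0.760, edgeR's quasi-likelihood test). The AMPA and kainate receptor list had 5 of 13 higher (median -0.04), the NMDA and metabotropic list 4 of 9 (median -0.00) and the GABA-A list 3 of 12 (median -0.12). Gabrd, the subunit of extrasynaptic GABA-A receptors, went against its list, at 54.5, 56.6, 53.2 and 57.5 CPM in control and 108, 67.6, 71.2 and 78.8 CPM in CUS mice, without overlap (adjusted p = 0.760). The inhibitory metabotropic receptor genes Grm7 and Grm8 had log2 differences of -0.34 (SE 0.139) and -0.44 (SE 0.156).

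Of the ion channels, 19 of 30 potassium channel genes were higher, with a median of 0.03, and 12 of 21 calcium and sodium channel genes, with a median of 0.08. Kcnj3, which encodes the GIRK1 subunit opened by inhibitory G-protein signals, stood at 433, 566, 511 and 527 CPM against 269, 396, 451 and 315 CPM. The groups overlapped at control mouse 1 and CUS mouse 3 (log2 -0.52, SE 0.153, adjusted p = 0.506, edgeR's quasi-likelihood test). Scn3a, a sodium channel gene most active early in development, stood at 264 ± 9.00 and 217 ± 14.9 CPM (SD, n = 4 each).

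The list furthest below 0 was that of slit, netrin and ephrin guidance genes, with 16 of 22 tested lower and a median of -0.15. Slit2, a secreted repellent of axons and dendrites, stood at 354, 283, 292 and 287 CPM in control and 179, 198, 242 and 227 CPM in CUS mice, without overlap (log2 -0.51, SE 0.147, adjusted p = 0.506, edgeR's quasi-likelihood test). Its receptor gene Robo1 stood at 456 ± 55.5 and 353 ± 105 CPM (SD, n = 4 each). In bulk mPFC nuclei Slit2 had a log2 difference of -0.49 (SE 0.111, adjusted p = 0.0368). In layer 2/3 and layer 6 nuclei it stood at -0.42 (SE 0.168) and -1.04 (SE 0.259), with adjusted p = 0.466 and 0.542 by the same test. Epha10 went the other way in this list, at 95.6 ± 5.99 and 138 ± 38.7 CPM. The semaphorin list had 4 of 9 higher (median -0.00) and the synaptic adhesion list 11 of 32 (median -0.07). Astn2, in the migration list with 13 of 23 higher (median 0.01), stood at 746, 846, 736 and 783 CPM against 577, 608, 555 and 519 CPM, without overlap (adjusted p = 0.506).

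Cytosolic ribosomal protein genes had 14 of 18 tested higher with a median of 0.25, and nuclear-encoded genes of the respiratory chain 55 of 70 with a median of 0.14. In layer 2/3 and layer 6 nuclei the medians were 0.28 and 0.16 for the former and 0.26 and 0.20 for the latter. At an unadjusted p under 0.05, 4 of the former and 7 of the latter were higher and none was lower, beside the 3.02% higher and 2.68% lower of all genes tested. CUS mouse 2 went the other way and was the lowest of the 8 mice in both list sums, at 1421 and 3981 UMI CPM, against at least 1651 and 4553 in control mice. Rps24 stood at 59.4, 53.3, 55.8 and 22.4 CPM in control and 95.4, 72.6, 101 and 74.7 CPM in CUS mice (log2 0.77, SE 0.228, adjusted p = 0.506, edgeR's quasi-likelihood test). Chaperone genes had 13 of 21 higher (median 0.11), with Hspa8, the constitutive Hsc70, at 82.1 ± 30.0 and 131 ± 37.7 CPM (SD, n = 4 each). Genes of the mitochondrial genome had 3 of 7 higher (median -0.10).

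Yy1, a zinc finger factor that joins enhancers to promoters and that the study deleted in other mice, stood at 61.9, 74.9, 84.3 and 38.3 CPM in control and 46.5, 60.1, 69.1 and 67.9 CPM in CUS mice. The groups overlapped fully, and the log2 difference was -0.15 (SE 0.225, adjusted p = 0.964, edgeR's quasi-likelihood test). The Yy1 levels rest on 12 to 65 UMIs per mouse, so a small difference could be missed. The YY1, CTCF and cohesin list had 8 of 16 higher, with a median of -0.03.

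**Figure D4:**
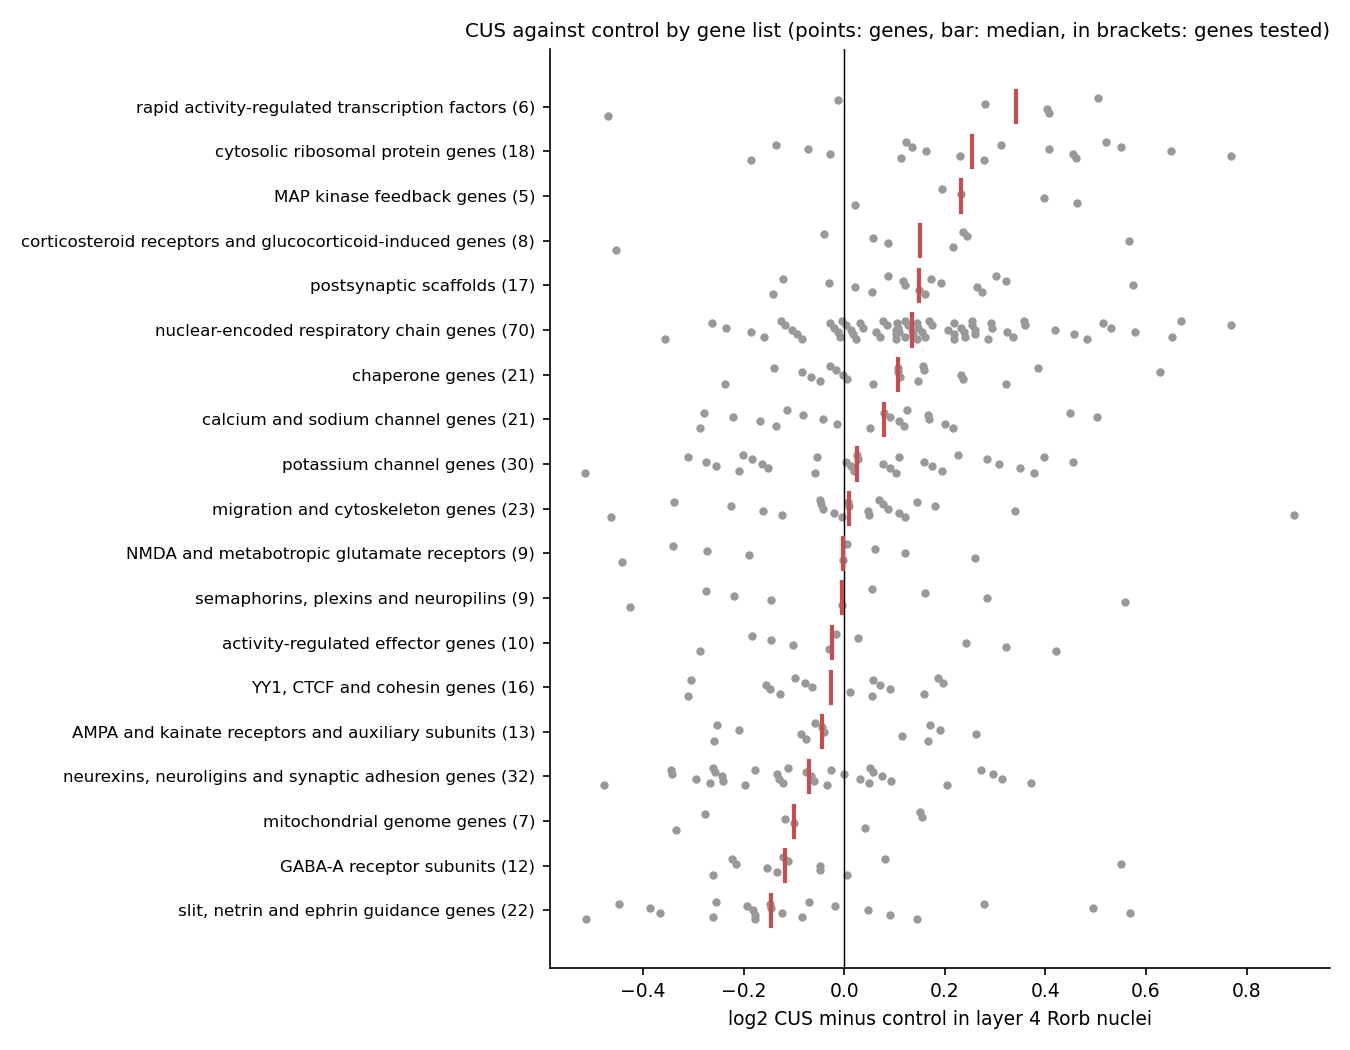
Log2 difference of CUS minus control in the Rorb nuclei for the tested genes (grey points) of 19 pathway lists, with the list median as a red bar and the number of genes tested in brackets. Medians run from -0.15 for the guidance genes to 0.34 for the rapid transcription factors. The point at 0.89 in the migration and cytoskeleton row is Mical2, the only call in these lists.

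Whether the effect of CUS in the Rorb nuclei differed from that in layer 2/3 was tested by the class by CUS term, with the mouse as a block. Of 5282 genes, 4 passed an adjusted p under 0.2 (0.0757%), among them Ptprk, Sgcd and Unc13b. In layer 2/3 nuclei Sgcd, a sarcoglycan gene that lies on the Il1rapl2 side of the Rorb nuclei, stood at 197, 262, 233 and 243 CPM in control and 91.7, 185, 137 and 138 CPM in CUS mice. In the Rorb nuclei it stood at 612, 753, 593 and 648 CPM in control and 563, 568, 679.9 and 554 CPM in CUS mice. The layer 2/3 groups were apart and the Rorb groups overlapped. The effects were -0.81 (SE 0.169) and -0.14 (SE 0.136), and their difference was 0.67 (SE 0.149, adjusted p = 0.0788, edgeR's quasi-likelihood test).

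Ptprk, a receptor tyrosine phosphatase of cell contacts, had an effect of 0.21 (SE 0.151) in the Rorb nuclei and -0.39 (SE 0.168) in layer 2/3, a difference of 0.63 (adjusted p = 0.0788, edgeR's quasi-likelihood test). Unc13b, which primes synaptic vesicles for release, had 0.21 (SE 0.153) and -0.58 (SE 0.189), a difference of 0.76 (adjusted p = 0.157). Over 13 alternative settings, Ptprk was called in 8, Sgcd in 7 and Unc13b in 2. Without control mouse 2, or without CUS mouse 1 or 4, none of the 4 genes was called. Without control mouse 3 there were 2 calls and without CUS mouse 3 there was 1. DESeq2 called none, with 34 genes at an unadjusted p under 0.05.

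Against layer 6, 3 of 5009 genes passed (0.0599%), namely Col25a1, Chgb and Cdh10. Col25a1, a membrane collagen of neurons, stood in layer 6 at 76.7, 117, 72.5 and 71.2 CPM in control and 51.2, 48.1, 21.0 and 35.2 CPM in CUS mice. In the Rorb nuclei it stood at 34.7, 28.3, 49.3 and 44.7 CPM in control and 31.8, 97.7, 56.1 and 48.9 CPM in CUS mice, with CUS mouse 2 far above the rest. The difference between the effects was 1.74 (SE 0.368, adjusted p = 0.0520, edgeR's quasi-likelihood test). Cdh10, a type II cadherin, had an effect of 0.05 (SE 0.138) in the Rorb nuclei and -0.88 (SE 0.227) in layer 6, a difference of 0.87 (adjusted p = 0.0520). Chgb, a granin of dense-core vesicles, had -0.18 (SE 0.149) and 0.41 (SE 0.154), a difference of -0.57 (adjusted p = 0.0520). Over 13 alternative settings, Col25a1 was called in 11, Cdh10 in 9 and Chgb in 8. In none of the 6 genes named was the effect in the Rorb nuclei itself a call. DESeq2 called none against layer 6, with 33 genes at an unadjusted p under 0.05. Without CUS mouse 2 the calls numbered 10, without CUS mouse 3 they numbered 5, and without control mouse 1 or 2 or CUS mouse 1 there was 1.

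**Figure D5:**
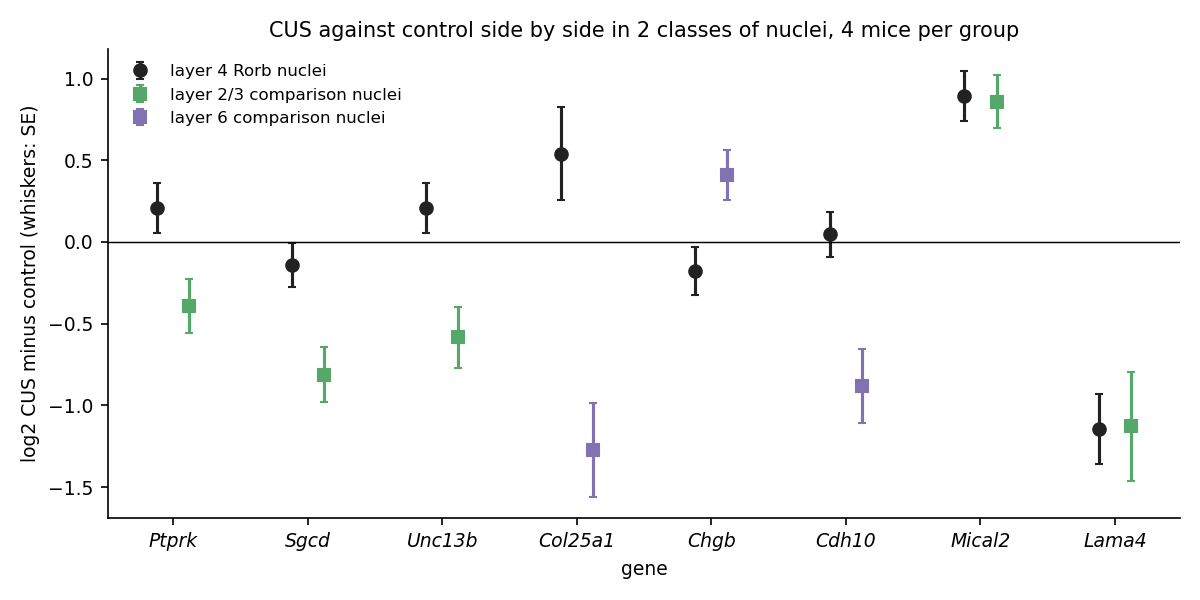
Log2 difference of CUS minus control (points, with SE as whiskers, 4 mice per group) for 6 genes whose effect differed between classes and for Mical2 and Lama4. Black circles are the Rorb nuclei, drawn as layer 4, and squares the layer 2/3 (green) or layer 6 (violet) comparison nuclei of the same mice. Ptprk and Unc13b lie on opposite sides of 0 in the 2 classes, while Mical2 stands at 0.89 and 0.86 and Lama4 at -1.15 and -1.13.

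RNA of other cell types was looked for in the members, since nuclei share their droplets with free RNA. The choroid plexus markers Ttr, Clic6, Kl and Folr1 (3 of 4 detected) summed to 0 to 4.67 UMI CPM in control mice and 11 to 21.1 in CUS mice, without overlap. In CUS mice most of it was Ttr, a thyroid hormone carrier, which had 3 UMIs in the members of control mice and 31 in those of CUS mice, while Folr1 was at 0. In all other barcodes Ttr ran from 1.40 to 25.3 UMI CPM in control mice and from 17.9 to 195 in CUS mice. The endothelial markers Flt1, Pecam1, Ly6c1 and Cldn5 (3 of 4 detected) summed to 0 to 2.92 and 4.93 to 8.26 UMI CPM, with Cldn5 at 0. The endothelial sums rest on few UMIs. Flt1, Pecam1 and Ly6c1 had 2, 1 and 1 in members of control mice and 8, 6 and 0 in those of CUS mice. Lama4 is also made by blood vessels, and whether their RNA bears on its level was not tested. The part of either list in the results was not tested. Summed oligodendrocyte markers ran from 165 to 777 UMI CPM in control mice, highest in control mouse 2, and from 214 to 444 in CUS mice. Sums of astrocyte, microglia, inhibitory and striatal markers overlapped between the groups.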

How the data were processed

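Nuclei of the cortex of 8 mice and bulk nuclear RNA of the mPFC of 9 other mice were analysed. Per the authors' methods, reads of the nuclei were aligned to mm10, exonic and intronic reads on the annotated strand were counted per gene, and UMIs 1 mismatch apart were merged, and the deposited counts are these UMIs. The authors' bulk counts are uniquely aligned reads (STAR), 26188825 to 30525015 per mouse. The labels also list Seurat and edgeR.

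The members, comparison nuclei and gene lists were chosen with earlier results of these data known. UMIs of members were summed per mouse, and genes with UMIs numbering over 10% of the nuclei were tested with edgeR 4.0.16 (R 4.3.3). TMM factors and the quasi-likelihood test were used, with p-values adjusted by Benjamini and Hochberg's method at 0.2 for nuclei and 0.05 for bulk. Each SE of a log2 difference was derived from that test, as the absolute difference divided by the square root of its F statistic. The 20 genes of the rule were left out of the results of the nuclei only after the fit. Those past the filter thus entered the TMM factors and the adjustment. The difference in effect between classes was the class by CUS term with the mouse as a block. Doublets were scored per mouse with Scrublet in scanpy 1.11.5 (expected rate 0.1). Exact permutation tests went through every split of the mice into groups of the same sizes (numpy 2.4.6). The procedures were tested on simulated counts. The edgeR likelihood ratio test without a batch term, DESeq2 1.42.0, other filters, other membership rules and each mouse left out were alternatives. Nuclei of a mouse were not treated as replicates. The study's own test of the nuclei had a batch term, for 2 batches of 2 control and 2 CUS mice. None was fitted here because the labels do not tie a mouse to its batch.

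Named genes, rule genes left out, were up to 12 called genes per direction without overlap between groups, the 3 genes of each pathway list with the smallest p, up to 5 calls of each test between classes, and Yy1. The text describes a selection of them, made after their values were seen. Equal replicate numbers were not taken to pair mice, since deviations of same-numbered mice correlated at over 0.1 in only 2 of 4 pairs.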

Additional observations from a re-analysis of the deposited data

Results flagged for a closer look

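Of 142 groups of 4 or 5 mice examined for a mouse far from the others of its group, 4 held one, where chance gives about 1 in 20 groups. CUS mouse 1 had a share of Rorb nuclei of 3.58%. Control mouse 1 had Slit2 at 354 CPM, control mouse 4 had Rps24 at 22.4 CPM and CUS mouse 3 had Sgcd at 679.9 CPM in the Rorb nuclei, each apart from the other mice of its group.

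The log2 effect of CUS differed between classes of nuclei in the following 6 genes by the class by CUS term of edgeR's quasi-likelihood test. The effect in Rorb nuclei minus that in layer 2/3 nuclei was 0.63 for Ptprk, 0.67 for Sgcd and 0.76 for Unc13b. The effect in Rorb nuclei minus that in layer 6 nuclei was 1.74 for Col25a1, -0.57 for Chgb and 0.87 for Cdh10.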

How the results depend on the processing

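Mical2 and Lama4 were called in each of the 18 alternative settings for CUS against control in the Rorb nuclei, but the number of calls depended on the setting. Against 2 calls, the likelihood ratio test gave 11, DESeq2 5, no filter on low counts 14 and leaving Prr16 out of the rule 4 besides Prr16 itself, and fits without 1 mouse gave 2 to 38. Equal numbers are only names here, and a replicate block gave 5 calls in the Rorb nuclei and 238 in bulk, where 1 of 4 pairs correlated at over 0.1. In bulk, against 606 calls, the likelihood ratio test gave 1330, DESeq2 1402 and fits without 1 mouse 132 to 1500. For the effect against layer 2/3, DESeq2 gave 0 calls (34 genes had a raw p under 0.05) and fits without 1 mouse 0 to 3. Against layer 6, DESeq2 gave 0 (33 genes had a raw p under 0.05), the likelihood ratio test 5 and fits without 1 mouse 1 to 10. The difference in the share of Rorb nuclei, CUS minus control, was 0.183 percentage points with 1 or more Rorb UMI and 0.161 with at least 1000 genes per nucleus, and -0.723 to 0.111 without 1 mouse. Among named genes, the log2 difference in the Rorb nuclei turned for Sgcd with 3 or more Rorb UMIs (0.0054), for Cdh10 without CUS replicate 2 (-0.044, range without 1 mouse -0.044 to 0.11) and for Yy1 without control replicate 3 (0.018, range -0.28 to 0.018). Of the other values of single genes, 1182 stayed on their side of the threshold, 33 lost a call and 8 gained one. The causes were not tested. With 134 to 268 members per mouse, genes of few UMIs, such as most rapid activity-regulated factors, fell below the filter.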
